A study of Mus musculus with 4 samples.

Results

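Clusters of open regions found in only one of 2 mouse dendritic cell types, cDC1 and pDC, are described here. The autosomes were cut into 100 kb bins from position 0, and each interval of a deposited peak list was put in the bin of its midpoint. An interval was called specific if it overlapped no interval of the other cell type by 1 bp or more. The members are the specific cDC1 intervals in bins with at least 8 of them and the specific pDC intervals in bins with at least 5. They were thus chosen by the peak lists themselves, so that their number per bin and their absence from the other list are a description and not a finding. There are 9415 cDC1 members in 997 bins and 840 pDC members in 149 bins, together 10255 of the 135642 intervals of both lists.

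Open chromatin is DNA that nucleosomes leave accessible, mostly at promoters and enhancers, and the transposase used in ATAC-seq cuts it more often. Genes that define a cell type often lie near several enhancers, so that open regions particular to that cell type can lie close together over many kilobases. A footprint is a short stretch within an open region that is cut less often than its flanks, as bound proteins protect DNA. cDC1 take up antigen and cross-present it to cytotoxic T cells, whereas pDC secrete type I interferon when they sense viral nucleic acids.

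Both were cultures of mouse bone marrow, with Flt3 ligand as the cytokine that drives dendritic cell development after an expansion phase. They were sorted as CD11c+ CD11b+ XCR1+ cells for cDC1 and CD11c+ CD11b- B220+ cells for pDC, and Omni-ATAC-seq, which modifies the lysis and washing steps of ATAC-seq, was performed on 2 replicates of each. No gene was altered and no agent was compared, and no source used here gives the strain, age or number of the animals. The replicates had been merged before the lists were made, so each cell type has 1 list and no replicate error. No test was therefore possible: the 95% intervals given below are Wilson intervals for shares and order-statistic intervals for medians, they cover counting error only, and neighbouring intervals are not independent.

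The lists differ in depth. The cDC1 list holds 83701 intervals and the pDC list 51941. The fold enrichment and the p-value of a peak together fix its pileup, which is the number of extended reads over the summit, and the background it was compared with. Solved this way, the pileup was a whole number (within 0.05) for 83699 of 83701 cDC1 intervals and for all 51941 pDC intervals. The background had a lowest level in each list, the genome-wide level, of 12.0 reads in cDC1 and 6.88 in pDC, a ratio of 1.75. The smallest pileup listed was 24 in cDC1 and 17 in pDC, or 2.00 and 2.47 times the genome-wide level. Of the cDC1 members, 276 (2.93%) had a pileup below 2.47 times their genome-wide level, and would lie under the smallest listed pDC pileup if they had the same height over background there. At equal height no pDC member would lie under the smallest listed cDC1 pileup, since the smallest listed pDC pileup lies above it on this scale. This concerns the smallest pileup of each list only. A peak is compared with its own background, and where that is higher a larger pileup is needed. A pDC member can therefore go unlisted in cDC1 at equal height too. Heights were not equal, however: shared intervals had a median pileup of 14.3 times the genome-wide level in cDC1 and 7.41 times in pDC. The 2.93% is therefore no upper limit, as the lower quartile of the pileup of cDC1 members was 3.83 times that level. Since the specific intervals of one list depend on the depth of the other, the numbers of the 2 cell types are not compared with each other.

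Specific intervals made up 50.7% of the autosomal cDC1 intervals (41513 of 81875), and 22.7% of them were members. The bins with at least 8 specific cDC1 intervals were 8.65% of the 11527 bins with any. In the pDC list 19.8% of the autosomal intervals were specific (10124 of 51097), of which 8.30% were members, and 2.5% of the 5955 bins with a specific pDC interval held at least 5. Just outside the limits lay 586 bins with 7 specific cDC1 intervals (median −log10 q 14.8) and 265 bins with 4 specific pDC intervals (9.24). Just inside lay 379 bins with 8 (14.5) and 86 bins with 5 (10.04). The q-value is the peak's p-value adjusted over the genome, so that a larger −log10 q stands for a stronger peak. At neither limit was there a gap in the numbers of bins, which fell off steadily on both sides.

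**Figure D1:**
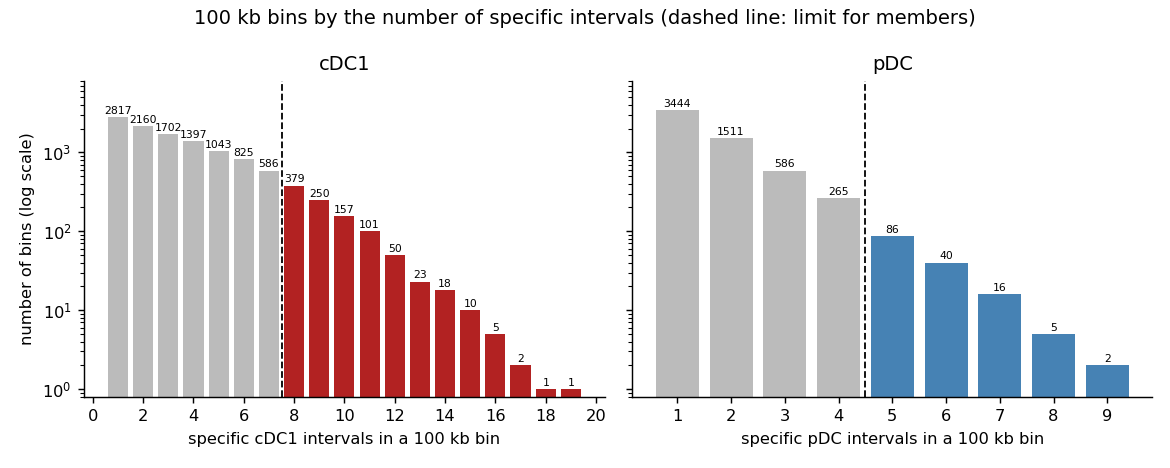
Number of 100 kb bins (y axis, log scale) by the number of specific intervals they hold (x axis), for cDC1 on the left and pDC on the right. Coloured bars are the bins that hold members, from 8 intervals upward in cDC1 (379 bins down to 1 bin with 19) and from 5 in pDC (86 bins down to 2 with 9), and the number over each bar is its count.

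The bin with the most cDC1 members lay on chr14:33800001-33900000 (mm9) and held 19. No pDC interval of any kind fell into it, and none of its cDC1 intervals was shared. The 19 members were individually weak, with a median −log10 q of 7.12 and a median fold enrichment of only 1.97. Their fold enrichment was low although the pileup was not, with a median of 93 reads against 72 for all cDC1 members, because the background listed for them was 3.22 to 4.51 times the genome-wide level. The strongest of them, from 33893275 to 33894017, had a −log10 q of 52.1, a pileup of 202 and 5 footprints with a highest tag count of 500. The tag count is the number of cleavage tags listed with a footprint.

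The other cDC1 bins with the most members held 15 to 18 each. Second was chr8:85600001-85700000 with 18 members, where 1 interval from 85655199 to 85656032 held 48.0% of the summed −log10 q (291 of 607). A bin on chr16:36600001-36700000 held 17 members and the touching bin from 36700001 to 36800000 held 16. The former had a median −log10 q of 19.9 and its strongest member held only 18.97% of the sum, so that several members were strong, whereas in the latter a single member from 36794932 to 36795481 (−log10 q 367) held 39.4%. On chr1:140800001-140900000 there were 17 members with a median −log10 q of 24.0.

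A different profile was listed on chr17:34400001-34500000, with 16 members. There the median background of the members was 8.65 times the genome-wide level and reached 15.3 times, their median pileup was 238 reads, and the bin also held 11 shared cDC1 intervals. The remaining bins among the 10 with the most members lay on chr10:19200001-19300000 (16), chr17:34500001-34600000 (16), chr14:34000001-34100000 (16) and chr2:30900001-31000000 (15). In 7 of these 10 bins no specific pDC interval was present, and in the others there were 1 or 2. Over all 13489 autosomal bins with any interval of either list, 55.9% held none, so 7 of 10 is near that share.

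The pDC bins with the most members held 7 to 9. On chr11:79400001-79500000, 9 pDC members lay among 11 specific cDC1 intervals and 8 shared pDC intervals. Their −log10 q was between 2.18 and 67.3, and the strongest, from 79484040 to 79484541, held 52.7% of the sum. The 9 members on chr8:125200001-125300000 were weaker, with a largest −log10 q of 14.2, beside 7 specific cDC1 intervals. By contrast the bin on chr5:37400001-37500000 held 8 pDC members and no specific cDC1 interval, and its strongest member, from 37467849 to 37468705, had a −log10 q of 154.0 and a pileup of 255.

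The next 4 pDC bins held 8 members each and lay on chr1:155500001-155600000, chr2:27000001-27100000, chr10:39000001-39100000 and chr1:36800001-36900000. The last 3 held 7 each and, of the 16 bins with 7 members, were those with the largest summed −log10 q, on chr4:140300001-140400000, chr5:112700001-112800000 and chr2:158500001-158600000. Their medians of 39.0, 34.4 and 20.7 reflect that choice. In 9 of the 10 pDC bins at least 1 specific cDC1 interval was present, as in 85.5% of all 13489 bins.

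**Figure D2:**
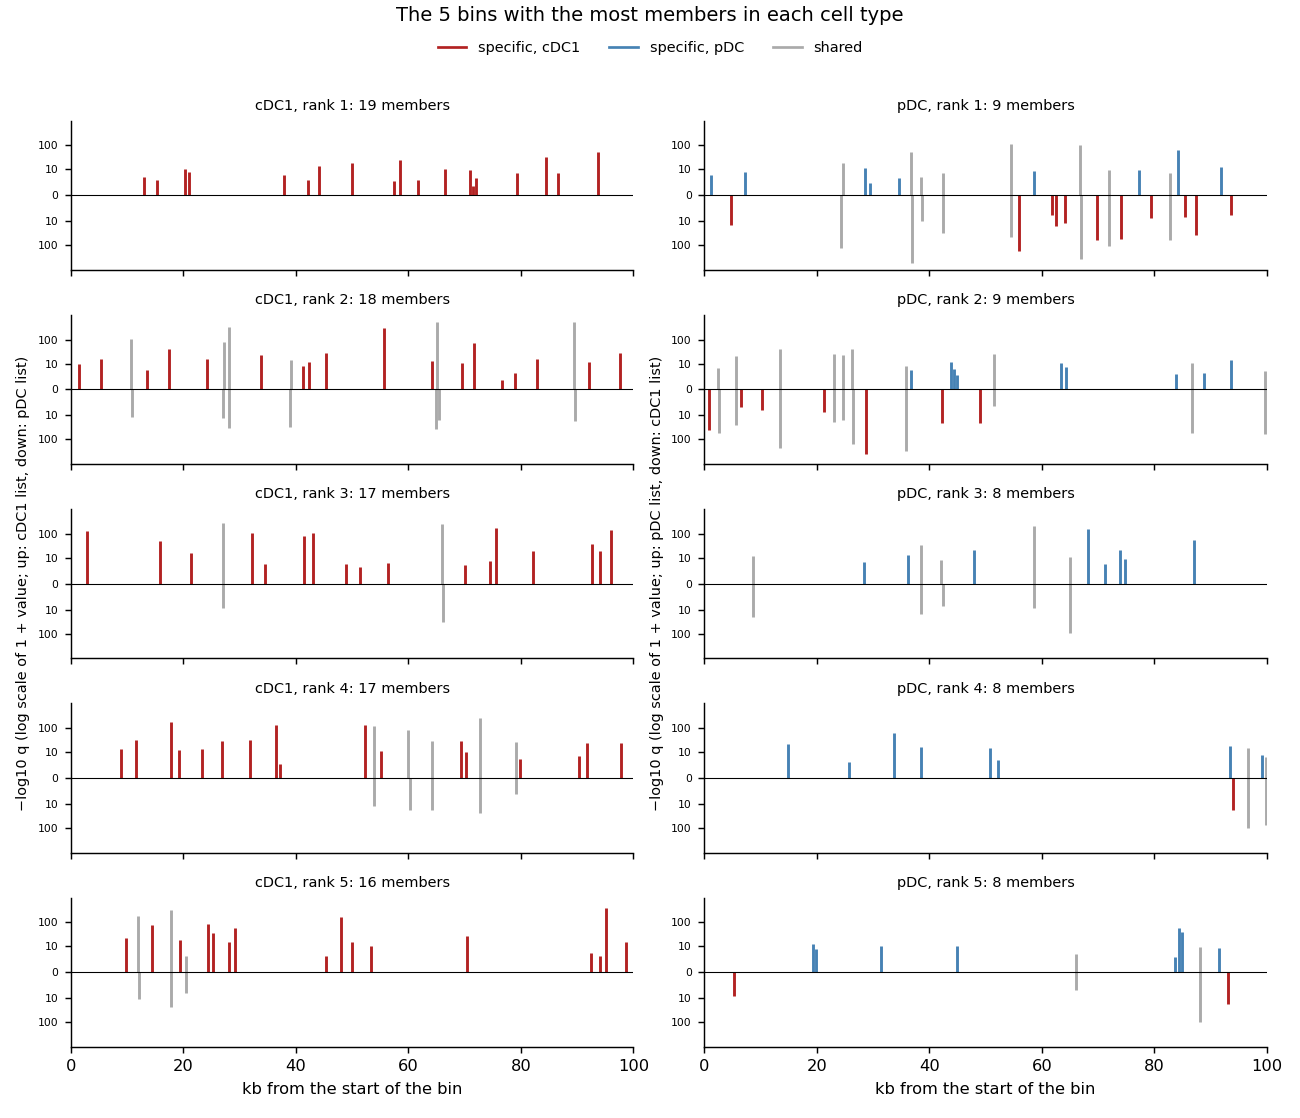
Intervals in the 5 bins with the most members of cDC1 (left) and pDC (right), by their distance in kb from the start of the bin (x axis), with the −log10 q of each as the length of its line (log scale of 1 + value). Lines upward belong to the list of the column's own cell type and lines downward to the other list; red and blue mark specific cDC1 and pDC intervals and grey marks shared ones. The cDC1 bin of rank 1 has 19 lines upward and none downward, whereas 11 specific cDC1 intervals lie among the 9 members in the pDC bin of rank 1.

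Members were spread over their bins and covered little of them. In the median bin the members spanned 80.8 kb in cDC1 and 62.8 kb in pDC, but covered only 3.56% and 2.1% of the 100 kb. The bin limits the span, which also grows with the number of intervals in it, so the spans follow in part from the rule. Spans of intervals placed at random in a bin were not computed. Neighbouring members of a bin were a median of 6143 bp apart in cDC1 (quartiles 2419 and 12305 bp) and 9508 bp in pDC. Gaps under 1 kb, which may split 1 region into several intervals, made up 12.3% (1036 of 8418) and 10.7% (74 of 691).

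Most clusters did not continue into the next bin. The 997 cDC1 bins formed 809 runs of touching bins, of which 657 were single bins, 121 were pairs and 31 were longer. The 149 pDC bins formed 141 runs, 133 of them single bins and 8 pairs. Of all 13489 bins, only 7.39% were cDC1 member bins and 1.105% pDC member bins, so single bins would be common without any tendency to stop at a border. Whether member bins touched more often than these shares imply was not tested. When clusters were instead drawn as chains of specific intervals at most 20 kb apart, 658 chains held at least 8 cDC1 intervals and 68 held at least 5 pDC intervals, and these chains contained 56.1% and 33.8% of the members. The members outside them share a bin but lie in looser groups.

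The longest run of all lay on chr14:33700001-34200000. Its 5 bins held 8, 19, 12, 16 and 11 cDC1 members, 66 in all, with 17 shared cDC1 intervals and no specific pDC interval. The background was above the genome-wide level at 59 of the 66, with a median of 3.53 times that level. As a chain, 55 specific intervals followed each other from 33745627 to 34089913, over 344 kb. The strongest member of the run had a −log10 q of 249, and the median was 10.8.

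Of the 3 cDC1 runs of 4 bins, those with the most members are given. On chr17:34400001-34800000 there were 52 members, but also 35 shared intervals and 4 specific pDC intervals. On chr1:39900001-40300000 there were 42 members with 16 shared and 5 specific pDC intervals, and here the median background was 1.21 times the genome-wide level. No pDC run was longer than 2 bins, and the 3 with the most members of the 8 such runs lay on chr2:26900001-27100000 (14 members), chr5:74500001-74700000 (14) and chr2:166300001-166500000 (13). They held 3, 3 and 11 specific cDC1 intervals.

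**Figure D3:**
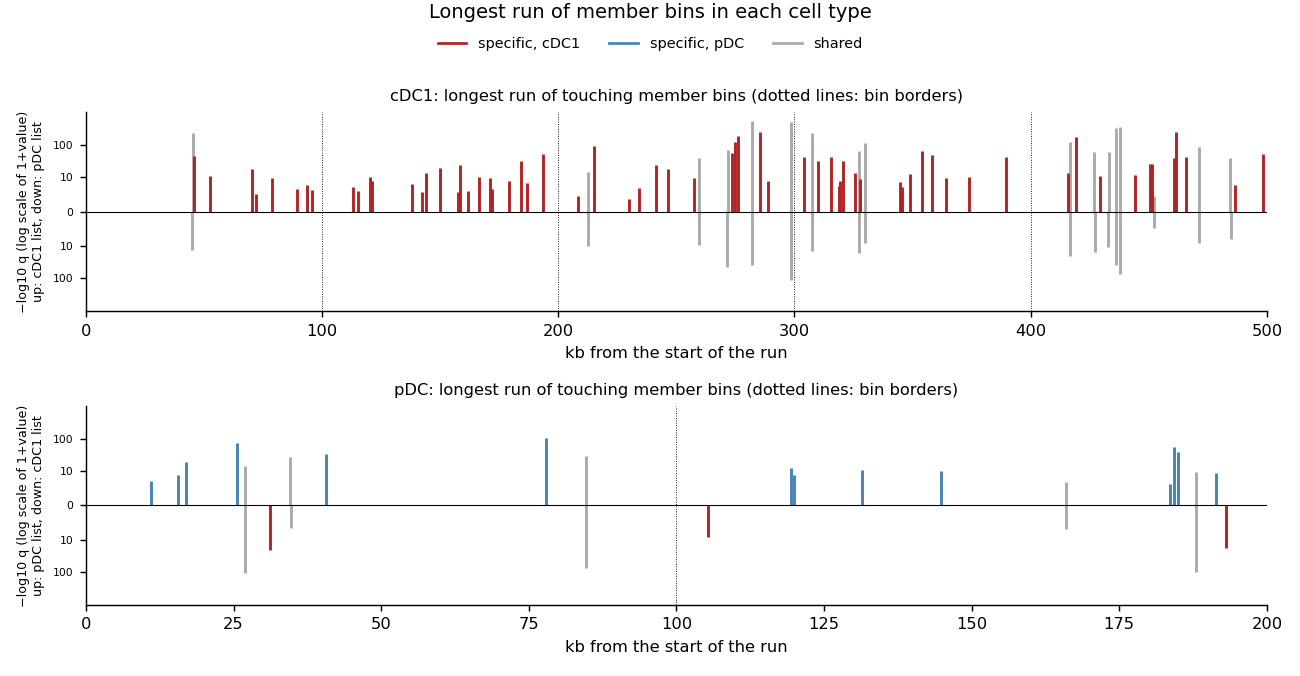
Intervals in the longest run of touching member bins of cDC1 (top, 5 bins) and pDC (bottom, 2 bins), by the distance in kb from the start of the run (x axis); the length of a line is the −log10 q (log scale of 1 + value), upward for the list of that cell type and downward for the other, with bin borders dotted. The cDC1 run has 66 specific lines upward, and every line downward is grey, that is shared.

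Within the lists, members were somewhat stronger than the other specific intervals, and both were weaker than shared ones. A shared interval had to be listed in both cell types, so that specific intervals are weaker is in part fixed by the rule. The −log10 q depends on depth, so the medians are not compared between the lists. The median −log10 q of cDC1 members was 15.4 (95% interval 14.8 to 16.03), that of other specific cDC1 intervals 12.9 (12.9 to 13.2) and that of shared cDC1 intervals 81.5. In pDC the medians were 10.09 (9.15 to 10.8), 8.22 (7.86 to 8.501) and 15.6, and the quartiles of members (4.93 and 22.2) and of shared intervals (6.63 and 41.3) overlapped widely. A −log10 q under 10 was listed for 36.9% of cDC1 members and 41.6% of other specific intervals, and for 49.8% and 56.9% in pDC. The members thus ranged from barely listed to very strong, with 791 cDC1 members (8.40%) and 14 pDC members (1.67%) at 100 or more.

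Most cDC1 clusters held at least 1 strong member. A member with a −log10 q of at least 50 was present in 838 of the 997 cDC1 bins (84.1%) and in 56 of the 149 pDC bins (37.6%), and one of at least 100 in 527 (52.9%) and 13 (8.72%). In only 14 cDC1 bins, but 30 pDC bins, did every member stay below 20. Per interval, a −log10 q of at least 50 was listed for 20.1% of cDC1 members and 16.5% of other specific cDC1 intervals. In pDC it was listed for 8.33% and 6.36%. A bin with more members is more likely to hold such a one, so the counts of bins follow in part from the number of members. The strongest member held a median of 36.0% of the summed −log10 q of a cDC1 bin and 41.7% of that of a pDC bin. The −log10 q depends on depth, so these shares are not comparable between the cell types.

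The clearest difference between members and other specific intervals was the background on which they sat. The background was more than 5% above the genome-wide level at 74.6% of cDC1 members (73.7 to 75.4%) but at 51.4% of other specific cDC1 intervals (50.9 to 52.0%), and at 82.9% (80.2 to 85.3%) and 63.0% (62.0 to 63.9%) in pDC. It had a median of 1.46 times the genome-wide level at cDC1 members against 1.07 times, and of 1.53 against 1.20 times in pDC. The pileup was higher too, with medians of 72 reads (71 to 73) against 57 (57 to 58) in cDC1 and 41 (39 to 45) against 35 (35 to 36) in pDC. Since both were higher, the fold enrichment hardly differed, at 3.33 (3.30 to 3.38) against 3.38 (3.38 to 3.41) and 3.55 (3.43 to 3.68) against 3.54 (3.48 to 3.55). The background is counted from the same reads as the peaks, and a cluster brings neighbouring peaks near, so it is not independent of the rule.

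Where the background stood at the genome-wide level, members and other specific intervals had the same medians. The 2394 such cDC1 members had a median pileup of 42 reads (41 to 43) and a median −log10 q of 9.44 (8.89 to 9.997), and the 15589 other specific intervals had 42 (42 to 43) and 9.44 (9.44 to 9.997). In pDC the 144 such members and the 3438 other specific intervals both had a median pileup of 26 and a median −log10 q of 6.04.

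A near neighbour went with a higher background, and the share was higher for members than for other specific intervals at each distance, though in pDC the intervals of the shares overlapped under 2 kb, at 2 to 5 kb and from 20 kb. Among cDC1 intervals under 2 kb from the next interval of the list, 87.3% of members (86.3 to 88.2%) and 77.9% of other specific intervals (77.1 to 78.6%) lay above the genome-wide level. At 5 to 10 kb the shares were 38.0% (35.5 to 40.6%) and 27.1% (26.0 to 28.2%), and at 10 to 20 kb 21.1% (17.2 to 25.5%) and 13.9% (12.9 to 15.1%). In pDC they were 93.2% (90.1 to 95.4%) and 89.8% (88.6 to 90.9%) under 2 kb, 67.8% (60.0 to 74.7%) and 55.9% (53.6 to 58.1%) at 5 to 10 kb, and 52.7% (42.6 to 62.5%) and 38.6% (36.1 to 41.2%) at 10 to 20 kb. How far several neighbours at once account for the background of members was not tested.

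The same measures followed the number of specific intervals in the bin. Just outside and just inside the limit, the median highest tag count was 150 (144 to 154) in bins of 7 and 149 (145 to 155) in bins of 8 in cDC1, and 89 (83 to 94) and 88.5 (79 to 97) in bins of 4 and 5 in pDC. The share above the genome-wide background was 67.5% (66.03 to 68.9%) and 68.8% (67.1 to 70.4%) in cDC1, and 76.8% (74.2 to 79.2%) and 82.1% (78.2 to 85.4%) in pDC. A lone specific cDC1 interval had a median highest tag count of 103 (100 to 105), and an interval in a bin of 14 to 19 had 183 (163 to 191). The share above the genome-wide background was 22.3% and 84.6% for these classes, and the median −log10 q 10.6 and 17.2. A fuller bin brings more neighbouring peaks near, and their reads enter the background, so its rise is not independent of the number per bin. In pDC the median highest tag count was 69 (67 to 71) for lone intervals and 106.5 (90 to 116) in bins of 8 or 9, and the shares were 51.2% and 96.6%. The fold enrichment had no such course, with medians of 3.30 to 3.40 over all cDC1 classes and 3.45 to 3.62 over all pDC classes. Among the pDC classes from 5 members upward, the intervals of the tag counts overlapped, so that no order among them can be read.

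**Figure D4:**
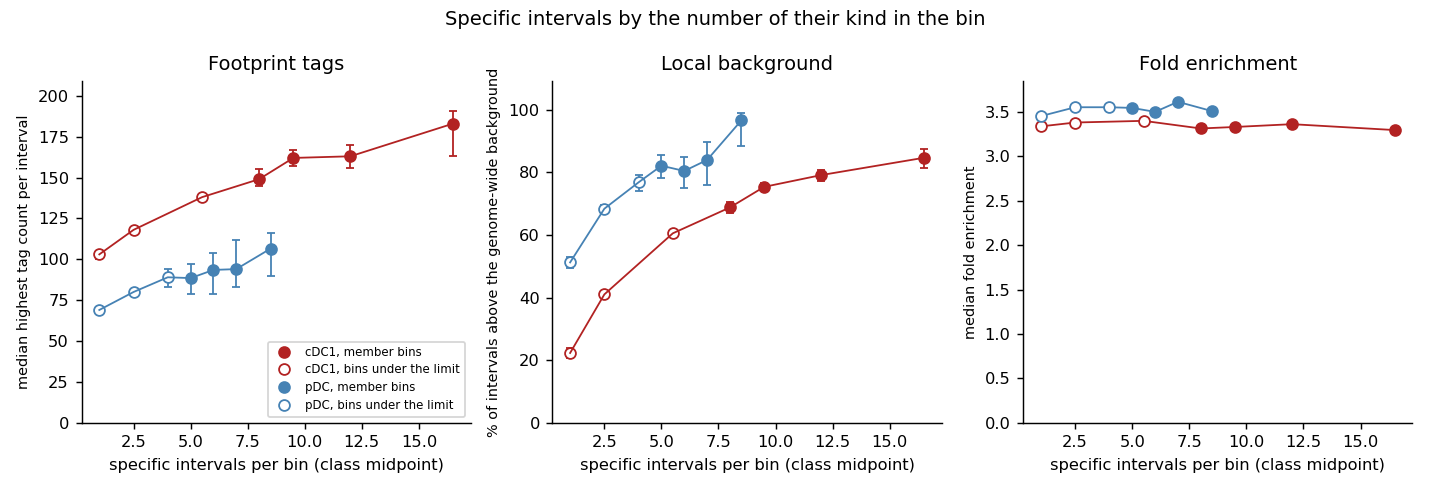
Median highest footprint tag count (left), percent of intervals with a background over the genome-wide level (middle) and median fold enrichment (right) of specific intervals, by the number of specific intervals in their bin (x axis, class midpoint), for cDC1 in red and pDC in blue. Filled points are member bins, open points are bins under the limit and bars are 95% intervals for counting error. Tags and background are higher in fuller bins (cDC1 tags 103 to 183), whereas the fold enrichment stays between 3.30 and 3.62. The background includes reads of neighbouring peaks, so it is not independent of the number per bin.

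The number of footprints was close in members and other specific intervals. A cDC1 member held 4.82 ± 2.91 footprints (mean ± SD over 9415 intervals) and another specific cDC1 interval 4.86 ± 2.86, and in pDC the numbers were 4.95 ± 2.95 (840 intervals) and 4.82 ± 2.86. At least 5 footprints were listed in 49.1% of cDC1 members (48.1 to 50.1%) and 49.9% of other specific intervals (49.3 to 50.4%), and in 49.9% (46.5 to 53.3%) and 49.4% (48.3 to 50.4%) in pDC. Shared intervals were wider, with a median of 549 bp in cDC1 against 365 bp for members, and held 7.46 ± 4.36 footprints. In total the members held 45388 cDC1 and 4156 pDC footprints, and 275 and 15 members held none.

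The strongest cDC1 members lay on chr6:71987464-71988046 (−log10 q 586, in a bin of 15), chr2:30907803-30908476 (564, 15), chr1:21076254-21076872 (542, 12), chr1:145846408-145847057 (465, 10) and chr3:37286008-37286806 (463, 9). Their pileups were 536 to 854 reads. The member at 145846408 had the largest pileup of the 5, 854 reads, on the highest background, 8.37 times the genome-wide level, and no footprint was listed in it. The others held 2 to 6 footprints, so that the strongest peaks were not the ones with most footprints.

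The strongest pDC members lay on chr11:108122922-108123568 (−log10 q 159.7, in a bin of 6), chr5:37467849-37468705 (154.0, 8), chr13:93444467-93445102 (133, 5), chr2:103543389-103544087 (127, 5) and chr7:105743021-105743855 (121, 5). They held 6 to 8 footprints with highest tag counts of 327 to 543. The bin of the fifth, on chr7:105700001-105800000, also held 9 cDC1 members.

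The members with the most footprints had several summits in cDC1. The first, on chr7:108509536-108510521, was 986 bp wide and held 24 footprints under 2 summits. The other 4, with 20 to 22 footprints, lay on chr4:48280773-48281542, chr8:46495073-46496632, chr1:175381460-175382217 and chr10:10188529-10189310, each with 2 or 3 summits. Over all cDC1 members only 392 (4.16%) had more than 1 summit.

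In pDC the member with the most footprints, 19, lay on chr5:36720106-36721166, and one with 16 lay close by from 36715791 to 36716246, in a bin of 7 members. The others were on chr4:140343218-140343834 (17), chr2:120125519-120126165 (16) and chr6:146462879-146463691 (14). Their −log10 q ranged from 25.6 to 85.3.

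The clusters lay among regions open in both cell types. A cDC1 member bin held 5.46 ± 3.13 shared cDC1 intervals (mean ± SD over 997 bins) and a pDC member bin 4.25 ± 2.88 shared pDC intervals (149 bins). The nearest shared interval was a median of 6.08 kb away from a cDC1 member and 8.25 kb from another specific cDC1 interval, and 7.92 and 8.30 kb away in pDC. Of the cDC1 bins, 18 of 997 (1.81%) held no pDC interval at all, against 12.8% of all 13489 bins, but member bins hold more shared intervals. Of the pDC bins, 7 of 149 (4.70%) held no cDC1 interval, near the 4.15% of all bins. After the bin on chromosome 14 described above, the fullest of these were chr5:58200001-58300000 with 13 cDC1 members and chr1:43400001-43500000 with 11. For pDC they were chr2:162900001-163000000 with 6 members, and chr10:117900001-118000000 and chr13:51300001-51400000 with 5 each.

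Specific intervals of the other cell type were not missing from the clusters. Specific pDC intervals were absent from 451 cDC1 bins (45.2%, 42.2 to 48.3%), against 55.9% of all bins, and specific cDC1 intervals from 25 pDC bins (16.8%, 11.6 to 23.6%), near the 14.5% of all bins. A cDC1 member bin held 0.98 ± 1.24 specific pDC intervals (mean ± SD, 997 bins) and another bin 0.73 ± 1.08 (12492 bins), beside 5.53 and 2.84 shared ones. As shares, which fall as the shared number grows, of the pDC intervals in cDC1 member bins 15.1% were specific (978 of 6496, 14.2 to 15.9%), against 20.5% in other bins (20.1 to 20.9%). Among bins with like numbers of shared pDC intervals the shares lay close to each other, apart from the emptiest. With 3 to 5 shared intervals the shares were 17.8% (16.2 to 19.6%) and 18.5% (17.9 to 19.1%), with 6 to 8 they were 14.3% and 14.8%, and with 9 or more 12.1% and 11.2%. With 0 to 2, they were 22.8% (18.4 to 27.9%) and 36.8% (35.9 to 37.7%). In this class the bins were not alike: member bins held 1.43 shared pDC intervals and other bins 0.90. The specific ones were 0.42 ± 0.77 and 0.52 ± 0.92 per bin, so the lower share comes in part from more shared intervals.

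A pDC member bin held 3.66 ± 3.23 specific cDC1 intervals (149 bins) and another bin 3.07 ± 2.68 (13340 bins), beside 4.19 and 2.98 shared ones. As a share, 46.6% of the cDC1 intervals in pDC member bins were specific (545 of 1169, 43.8 to 49.5%), against 50.8% elsewhere (50.4 to 51.1%). With 0 to 2 shared cDC1 intervals in the bin the shares were 54.7% (46.1 to 63.0%) and 68.2% (67.6 to 68.9%). In this class member bins held 1.43 ± 2.02 specific and 1.18 shared cDC1 intervals, and other bins 1.97 ± 2.03 and 0.92. With 3 to 5 the shares were 47.9% (43.2 to 52.8%) and 49.96% (49.4 to 50.5%). The order was turned with 6 to 8, at 44.6% (40.1 to 49.3%) and 42.7% (42.1 to 43.4%), and with 9 or more, at 42.9% (36.0 to 49.99%, 11 bins) and 34.4% (33.5 to 35.2%).

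In 22 bins both cell types had a cluster, which is 2.21% of the cDC1 bins and 14.8% of the pDC bins. Over all 13489 bins, 1.105% held a pDC cluster and 7.39% a cDC1 cluster. Bins with more shared cDC1 intervals more often held a cDC1 cluster, so like bins were also compared. With 0 to 2 shared cDC1 intervals, 2.04% of pDC member bins and 2.26% of other bins held a cDC1 cluster. With 3 to 5 the shares were 12.96% and 10.13%, and with 6 to 8 they were 22.86% and 17.72%. The gap was large only with 9 or more, at 54.5% (6 of 11 bins) and 19.75%. These shares rest on 1, 7, 8 and 6 pDC member bins. The 22 bins held 210 cDC1 and 123 pDC members. The 2 fullest held 20 members each. One, chr1:132900001-133000000, held 14 cDC1 and 6 pDC members, with a median −log10 q of 10.4 and 18.5 in their own lists. The other, chr11:79400001-79500000, held 11 and 9. In the other 20 bins there were 8 to 12 cDC1 and 5 to 7 pDC members.

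Regions open in both cell types were not used to choose members, and their signal can be compared between the lists. For this, footprints that overlapped by at least 50% of both were paired, and the ratio of their tag counts, cDC1 over pDC, was divided by its median over all 89622 pairs, 3.27. In cDC1 member bins the median log2 ratio was 0.07 (0.06 to 0.08, 11373 pairs), in pDC member bins it was -0.17 (-0.22 to -0.13, 1180 pairs), and in bins without a cluster -0.0083. Relative to the median pair, the shared regions thus leaned slightly toward the cell type of the cluster, whereas both medians lay below 0 (-0.29 and -0.53) when the ratio was divided by that of all tag counts, 4.18. At least 2-fold higher in cDC1 were 9.98% of the pairs in cDC1 bins and 4.24% of those in pDC bins, against 6.56% of all pairs. At least 2-fold higher in pDC were 7.39% and 18.1%, against 9.6% of all pairs. Bins with a cluster of both cell types count in both sets, and the 283 pairs in them had a median log2 ratio of -0.12 (-0.25 to -0.03).

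The lean was also present in the pileup and in the local background, but not in the median of the fold enrichment. Over pairs of shared intervals and relative to the median of all 40062 pairs, the pileup at the summit had a median log2 ratio of 0.13 (0.11 to 0.15) in cDC1 bins (5398 pairs) and -0.26 (-0.33 to -0.21) in pDC bins (618 pairs). The background had 0.21 (0.19 to 0.23) and -0.29 (-0.34 to -0.27), and the fold enrichment -0.0038 (-0.02 to 0.02) and -0.02 (-0.06 to 0.02). In the tail, however, 10.8% (8.63 to 13.5%) of the pairs in pDC bins had a fold enrichment at least 2-fold higher in pDC, against 6.43% of all pairs. The background around a shared interval includes the reads of members nearby, so it is in part the same measurement as the rule. Fewer cells with a region open and less accessibility per cell cannot be told apart in sorted populations.

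**Figure D5:**
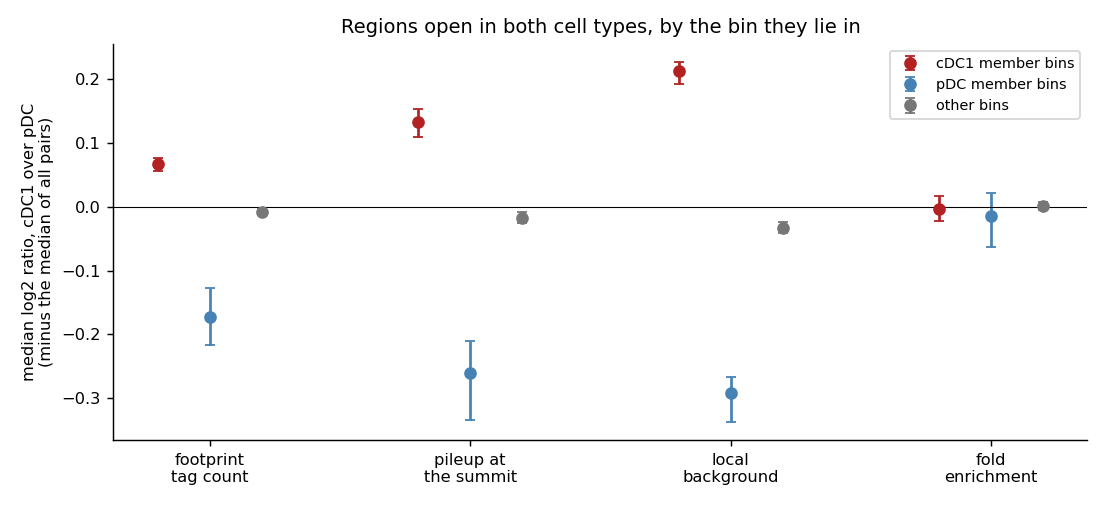
Median log2 ratio of cDC1 over pDC (y axis, minus the median of all pairs) for 4 measures of regions open in both cell types, in cDC1 member bins (red), pDC member bins (blue) and other bins (grey). Bins with a cluster of both cell types count in red and in blue. Bars are 95% intervals of the median for counting error; relative to the median pair, tag counts (0.07 and -0.17), pileups and background lean toward the cell type of the cluster, whereas the medians of the fold enrichment lie within 0.02 of 0.

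The lean was not shared by all clusters. Of 815 cDC1 bins with at least 5 pairs, 474 (58.2%) had a median log2 tag ratio above 0, and the bins ranged from -2.43 to 1.92. Of 96 pDC bins, 28 (29.2%) lay above 0, with a range from -1.79 to 0.85. A median beyond 1 toward cDC1 was found in 42 cDC1 bins and no pDC bin, and one beyond 1 toward pDC in 9 cDC1 bins and 7 pDC bins. The same counts over bins without a cluster are not given here, so these numbers describe only the spread among member bins.

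Clusters were found on all 19 autosomes in cDC1. The share of specific cDC1 intervals that were members was lowest on chromosome 18 (18.5%, 16.5 to 20.7%) and highest on chromosome 19 (26.6%, 24.4 to 29.0%). In pDC it reached 13.01% on chromosome 5 (95 of 730, 10.8 to 15.6%), whereas on chromosome 18 none of 306 specific pDC intervals was a member and no bin there held more than 4. Members come by the bin, at least 8 or 5 at a time, so the intervals of these shares are too narrow.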

How the data were processed

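Omni-ATAC-seq had been performed on 2 replicates each of cDC1 and pDC, and the authors merged the replicates. Per the paper's methods and the submitters' processing notes, Trim Galore, Bowtie2 and SAMtools were used to trim, align and filter reads and MACS2 to call peaks, all without stated versions. HINT-ATAC footprints were called by the authors inside peaks, and the deposited value of a footprint was read as a tag count not scaled for depth. The fold enrichment that the authors deposited is the ratio of pileup to background in MACS2, the deposited −log10 p and −log10 q are those of MACS2 per summit, and the deposited peak score, a rounded −log10 q, was not used further. The methods name a peak call without local background and a q-value filter, whereas the lists hold a background that varies between peaks and −log10 q from 1.30 upward, so the values were used as listed.

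Lines with equal start and end were joined to 1 interval with the largest −log10 q and fold enrichment of its summits. The pileup k and the background b were solved from the fold enrichment, (k + 1)/(b + 1), and the Poisson −log10 p of the strongest summit. Footprints were given to the interval that holds their midpoint. Coordinates are mm9 and 1-based. The labels give mm9, and positions go past the end of GRCm38 on 8 of 21 chromosomes, so genes, annotation, sequences, motifs and cell type markers were not analysed here. The regions named are, per cell type, the 10 bins with the most members, the 3 longest runs, and the 5 members of largest −log10 q and of most footprints. Members, lists and measures were chosen with earlier results of these data known. The steps were tested on simulated data and overlaps were checked with bedtools 2.31.1; Python 3.11.15, numpy 2.4.6, pandas 2.3.3, scipy 1.17.1 and matplotlib 3.10.9 were used. Reads carry no molecular identifiers, and no source used here says whether the replicates were separate cultures.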

Additional observations from a re-analysis of the deposited data

Results flagged for a closer look

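Chromosome X lies outside the rule, which covers autosomes only, and the same limits were met there. In cDC1, 161 of 1122 specific intervals on chromosome X lay in 17 bins with at least 8 of them (14.3%), and the fullest, from 103300001 to 103400000, held 12. Over the autosomes the share was 22.7%, and the lowest of any autosome was 18.5%, on chromosome 18. In pDC, 5 of 129 specific intervals (3.88%) lay in 1 bin, from 11400001 to 11500000. The share over the autosomes was 8.30%, with 0% on chromosome 18 and 3.63% on chromosome 19. No control sample and no replicate bear on these numbers.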

How the results depend on the processing

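No paired analysis was possible because the replicates had been merged and 1 list per cell type was used, so no replicate could be left out either. Of 156 recomputed values, 77 left the 95% interval or 1.5 times the count of the value reported, or changed sign, and 79 did not. Some of the 79 could not move. At least 8 per bin in both is the cDC1 rule itself, and at least 5 per bin in both is the pDC rule itself. The 79 therefore overstate how stable the values are. The numbers of members follow the limits. Bins of 50 kb (at least 4 or 3) gave 16957 cDC1 members in 3437 bins and 1919 pDC members in 573. Bins of 200 kb (16 or 10) gave 4118 in 226 and 156 in 15. Requiring over 1 kb to the other list gave 5737 in 620 and 504 in 92, and a −log10 q of at least 10 gave 1727 in 192 and 83 in 16. With the cDC1 list cut to the length of the pDC list and at least 5 per bin in both, there were 3620 in 621 and 2904 in 500, against 23682 cDC1 members in 3451 bins for at least 5 per bin in the whole list, and at least 8 gave 58 pDC members in 7. Chains of intervals within 20 kb gave 68 pDC clusters. Bins shifted by 50 kb changed no number of members or bins by over 1.5 times, nor did, added after seeing the data, joining specific intervals under 1 kb apart (717 and 117 bins).

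The median −log10 q of cDC1 members was 17.2 if up to 50% overlap was allowed, 31.2 with the limit of 10, 44.3 with equal list lengths and 14.7 with at least 5 per bin, and that of pDC members 22.7 with the limit of 10 and 8.501 with equal lengths. At least 5 footprints were held by 51.1% of cDC1 members with up to 50% overlap, 53.7% with the limit of 10 and 59.6% with equal lengths, and by 55.1% of pDC members in 200 kb bins and 60.2% with the limit of 10; counting only footprints with the median tag count or more left 14.8% and 19.6%. The share of cDC1 members above the genome-wide background was 75.8% for bins shifted by 50 kb, 71.5% in 50 kb and 77.4% in 200 kb bins, 71.1% beyond 1 kb, 75.5% with up to 50% overlap, 85.1% with the limit of 10, 83.6% with equal lengths and 67.6% with at least 5 per bin. That of pDC members was 86.5% in 200 kb bins, 78.4% beyond 1 kb, 93.98% with the limit of 10 and 96.6% with at least 8.

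Specific shares among cDC1 intervals in pDC bins were 42.0% for bins shifted by 50 kb, 42.8% in 50 kb bins, 36.5% beyond 1 kb, 37.8% with the limit of 10 and 29.7% with equal lengths. Those among pDC intervals in cDC1 bins were 10.4% beyond 1 kb, 16.3% with up to 50% overlap, 14.1% with the limit of 10 and 24.4% with equal lengths. The log2 tag ratio of shared regions in cDC1 bins was 0.053 in 50 kb bins, 0.077 with up to 50% overlap, 0.078 with equal lengths, 0.10 with the limit of 10, 0.042 with at least 5 per bin, 0.13 with 1 pair per interval and 0.13 with pileups, a measure added after seeing the data. It changed sign to -0.29 when divided by the ratio of all tag counts and to -0.0038 with the fold enrichment. In pDC bins it was -0.28 for bins shifted by 50 kb, -0.30 in 200 kb bins, -0.27 beyond 1 kb, -0.22 both with up to 50% overlap and with equal lengths, -0.43 with at least 8, -0.53 with the ratio of all tag counts, -0.015 with the fold enrichment and -0.26 with pileups. In each of these settings but the fold enrichment, cDC1 bins lay above pDC bins by over 0.1. Depth limits weak members most: at the smallest −log10 q, 1.30, a region missing from the other list need not be closed there.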
